A study of Mus musculus with 12 samples.

Results

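Malat1, Neat1, Rn7sk, Rmrp, Rpph1, Gas5, Snhg1 and Snhg12 are nuclear or structural RNAs that encode no large protein, and they were taken here as 1 set of 8 genes out of the 43629 in the count table. The set was chosen by measured values, the shares of counts that each gene took per library, and used the lower shares of Malat1 and Rn7sk after the DN3a stage, so those differences are given as a description without a test. A total of 7 of the 8 had a row in the table and all 7 of these passed the filter on low counts. The level of Snhg1 was not analysed here. Total RNA had been sequenced, after removal of ribosomal RNA, from pre-T cells of the thymus of C57BL/6 mice in 12 libraries, 4 biological replicates in each of 3 groups. Control DN3a and control DN3b cells, the stages of CD4- CD8- thymocytes before and after beta selection, came from mice of the genotype Zfp36l1fl/fl, Zfp36l2fl/fl. The third group, DCKO, held DN3-like cells, not divided into a and b, of the genotype Zfp36l1fl/fl, Zfp36l2fl/fl, CD2cre, in which Cre acts in lymphoid cells from a CD2 promoter. All 3 groups thus carry the floxed alleles and only DCKO carries Cre. Libraries held 28479157 to 45975678 counts.

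The members do different work in the cell. Malat1 and Neat1 are long RNAs kept in the nucleus, Malat1 in nuclear speckles rich in splicing factors and Neat1 as the scaffold of paraspeckles. Malat1 and the long isoform of Neat1 end in a stable triple helix in place of a poly(A) tail, made when RNase P cuts off a tRNA-like piece. Rn7sk, the 7SK RNA, holds the elongation kinase P-TEFb inactive together with the proteins HEXIM1, LARP7 and MEPCE. Rpph1 is the catalytic RNA of RNase P, which trims the 5′ ends of tRNA precursors, and Rmrp is its relative in RNase MRP, which cuts the precursor of ribosomal RNA. Rn7sk, Rmrp and Rpph1 are made by RNA polymerase III. Gas5, Snhg1 and Snhg12 are spliced hosts that carry small nucleolar RNAs (snoRNAs) in their introns, and their spliced transcripts belong to the terminal oligopyrimidine class and are cleared by nonsense-mediated decay.

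The sequences shown first are those that set the members apart as RNAs. The 3′ regions of Malat1 (chr19:5795982-5796112, minus strand, GRCm38) and Neat1 (chr19:5824708-5824838, minus strand) carry the triple helix, and capitals mark stretches of at least 10 bases that both share.
Malat1 3′ region: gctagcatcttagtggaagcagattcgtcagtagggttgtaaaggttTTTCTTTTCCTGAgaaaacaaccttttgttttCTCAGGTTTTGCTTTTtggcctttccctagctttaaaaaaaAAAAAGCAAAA
Neat1 3′ region: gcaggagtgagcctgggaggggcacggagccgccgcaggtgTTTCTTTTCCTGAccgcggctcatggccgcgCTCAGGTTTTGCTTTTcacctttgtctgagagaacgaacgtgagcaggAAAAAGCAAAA
The shared U-rich stretches TTTCTTTTCCTGA and CTCAGGTTTTGCTTTT and the A-rich AAAAAGCAAAA stood in the same order in both. Of 2775 lincRNA genes, by their longest transcript, 2 (0.0721%) held TTTTGCTTTT and AAAAAGCAAAA within 131 bases on the strand of the transcript, and these were Malat1 and Neat1. Both stretches were taken from this pair, so these 2 genes had to be found. The count shows only that no other of the 2775 held both.

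The 5′ end of Rn7sk (bases 1 to 110, chr9:78175524-78175633, minus strand) is shown because it folds into the hairpin that binds HEXIM1; capitals mark GATC, the motif of that hairpin.
Rn7sk 5′ end: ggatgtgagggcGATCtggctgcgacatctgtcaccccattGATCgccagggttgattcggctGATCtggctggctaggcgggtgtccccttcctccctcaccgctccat
GATC occurred 3 times in these bases, and 0.425% of 39090 transcripts had it at least 3 times in their first 110 bases.

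Rmrp (chr4:43492788-43493058, minus strand, 271 bases) and Rpph1 (chr14:50807449-50807767, minus strand, 319 bases, of which the first 300 are printed) are shown because they were the members with the highest share of G and C, at 64.2% and 67.1%. Capitals mark stretches of at least 8 bases that both RNAs hold.
Rmrp: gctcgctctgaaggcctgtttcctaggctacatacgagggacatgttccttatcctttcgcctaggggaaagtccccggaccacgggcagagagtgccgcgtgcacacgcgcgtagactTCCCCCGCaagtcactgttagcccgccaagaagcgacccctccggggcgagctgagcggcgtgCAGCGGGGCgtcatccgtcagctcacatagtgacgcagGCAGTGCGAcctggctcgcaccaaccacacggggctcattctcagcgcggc
Rpph1: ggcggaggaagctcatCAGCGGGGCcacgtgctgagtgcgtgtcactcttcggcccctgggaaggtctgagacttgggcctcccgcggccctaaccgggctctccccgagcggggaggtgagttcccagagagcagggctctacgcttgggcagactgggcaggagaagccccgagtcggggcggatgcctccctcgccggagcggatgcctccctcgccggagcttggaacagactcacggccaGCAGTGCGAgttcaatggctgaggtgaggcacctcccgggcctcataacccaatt
The last shared stretch, TCCCCCGC, lies at bases 311 to 318 of Rpph1, beyond the printed run. In Rmrp it comes first, at bases 120 to 127, so the order differs between the RNAs. How many such stretches unrelated RNAs of this length share was not tested, and no kinship is read from them.

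The starts of Gas5 (chr1:161035116-161035205, plus strand) and Snhg12 (chr4:132308628-132308717, plus strand) are shown for the pyrimidine tract that names their class; each run covers the 50 bases before the annotated start and 40 from it, from RefSeq promoters on GRCm38.p6, which held 4 of the 8 members. Capitals mark TATATA and the tract, a C followed by at least 4 C or T.
Gas5 start: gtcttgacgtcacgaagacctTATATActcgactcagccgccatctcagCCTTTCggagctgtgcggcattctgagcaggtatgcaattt
Snhg12 start: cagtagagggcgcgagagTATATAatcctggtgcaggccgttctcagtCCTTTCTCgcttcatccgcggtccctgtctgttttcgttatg
A tract beginning within 10 bases of the start was found on the gene's strand in 30.7% of 32851 promoters, TATATA within the first 40 bases of such a run in 1.23%, and both in 0.402%. Gas5 has a second promoter entry upstream, in which neither was found. The entries of Snhg1, the third host, and of Malat1 also held neither.

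Relative to length, Rn7sk stood far above the other members. Levels are depth-scaled counts (CPM) on library sizes scaled by TMM, a factor that offsets differences in RNA composition, and are divided by the exonic length in kilobases only where genes are compared. In DN3a, Rn7sk reached 20130 ± 3830 CPM per kb (SD, n = 4), Rpph1 1413 ± 986, Malat1 879 ± 117, Rmrp 434 ± 191, Gas5 68.3 ± 7.31, Snhg12 9.56 ± 0.803 and Neat1 4.32 ± 0.193. Rpph1 and Malat1, neighbours in this order, did not differ beyond the spread of Rpph1. In DN3b Rmrp (504 ± 105) stood above Malat1 (261 ± 93.2), and in DCKO Rpph1 (655 ± 551), Malat1 (245 ± 58.9) and Rmrp (182 ± 102) did not differ beyond their spread. By group means, Rn7sk led and Gas5, Snhg12 and Neat1 closed the order in all 3 groups. The order of these last RNAs rests on their annotated exonic lengths, 3760 bases for Gas5, 2402 for Snhg12 and 20771 for Neat1. Isoforms were not told apart, and a shorter isoform would give a higher value per kb. In DCKO, Rmrp and Gas5 (116 ± 12.4) did not differ beyond the spread of Rmrp. Rn7sk, Rmrp and Rpph1 have only 331, 271 and 319 bases, and libraries of this kind keep short RNAs poorly. Their values per kb are therefore only loosely comparable with those of the long RNAs. Of all counts, the 7 RNAs together took 1.56% ± 0.166 in DN3a against 0.676% ± 0.196 in DN3b and 0.464% ± 0.0866 in the DCKO libraries. Malat1 (0.698%) and Rn7sk (0.756%), whose lower shares chose the set, made up most of the DN3a sum, so this difference restates the choice.

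**Figure D1:**
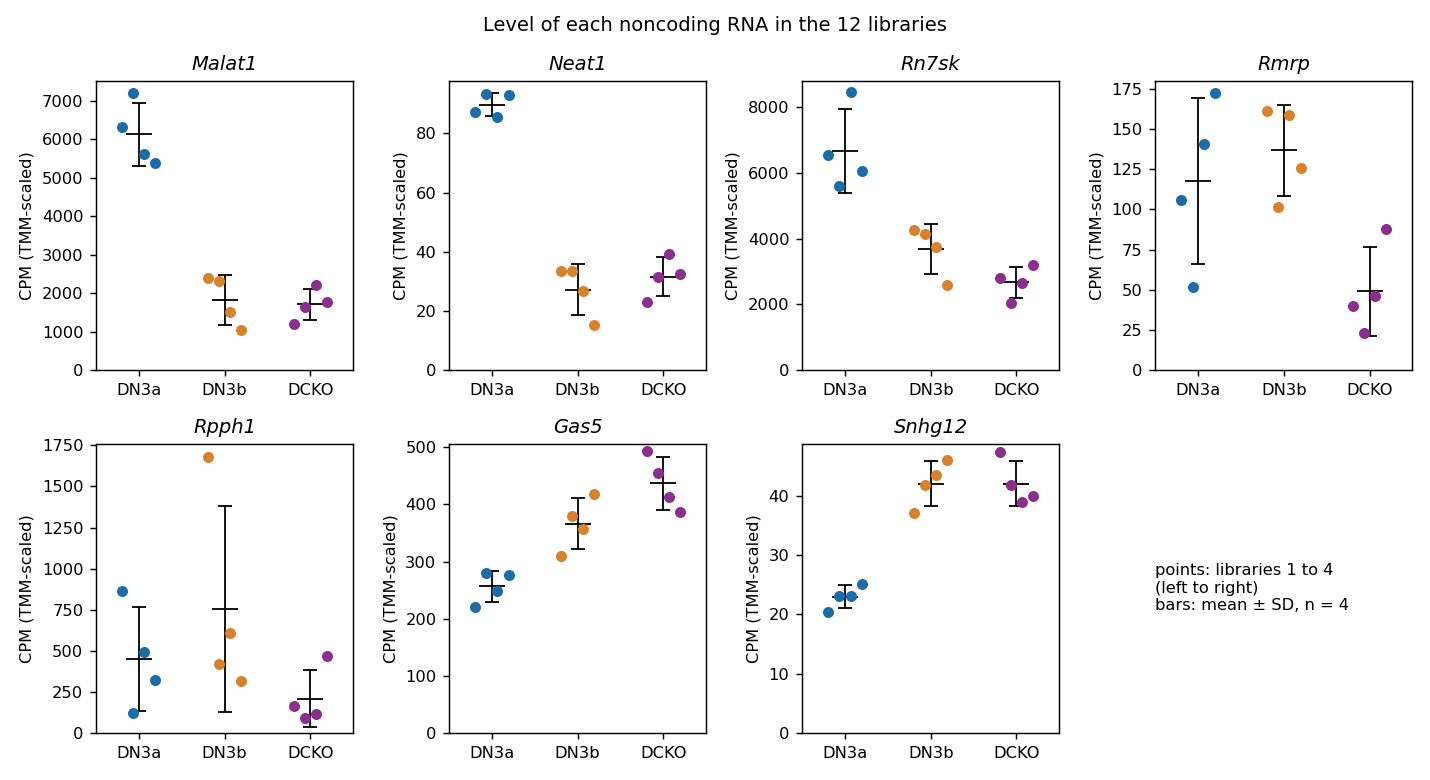
Level of each noncoding RNA in CPM on TMM-scaled library sizes (vertical axis, linear from 0) in DN3a, DN3b and DCKO; points are libraries 1 to 4 from left to right and bars give mean ± SD, n = 4. Malat1, Neat1 and Rn7sk were highest in all 4 DN3a libraries, Gas5 and Snhg12 lowest there, and Rpph1 spread from 313 to 1678 CPM within DN3b.

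Of the 5 RNAs tested between DN3b and DN3a, 1 fell, where 25.2% of all 13944 genes tested were called lower at an adjusted p under 0.05, and 2 rose, where 27.4% were called higher. Between DCKO and DN3a 2 of the 5 fell, against a background of 29.5%, and 2 rose, against 30.7%. Between DCKO and DN3b 1 of 7 fell, against 8.58%, and 0 rose, against 10.3%; the tool was edgeR throughout, and 0 of the 7 were higher there at an unadjusted p under 0.05 or called higher by DESeq2. The libraries of both groups did not overlap for 5 of the 7 RNAs between DN3b and DN3a (47.9% of all genes), for 5 of 7 between DCKO and DN3a (54.9%) and for 1 of 7 between DCKO and DN3b (20.9%). Malat1 and Rn7sk, whose levels chose the set, are among the 5 in both comparisons with DN3a, which share the 4 DN3a libraries, so nothing is read from those counts. For the following lists of related genes, a count of 0 rising or falling against DN3a means that 0 genes of the list also had an unadjusted p under 0.05 in that direction, and that DESeq2 called 0. The shares of all genes above are the background for the counts of each list. These were 27.4% higher and 25.2% lower in DN3b against DN3a, and 30.7% and 29.5% in DCKO against DN3a. Nothing particular to a list is read from counts near them.

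**Figure D2:**
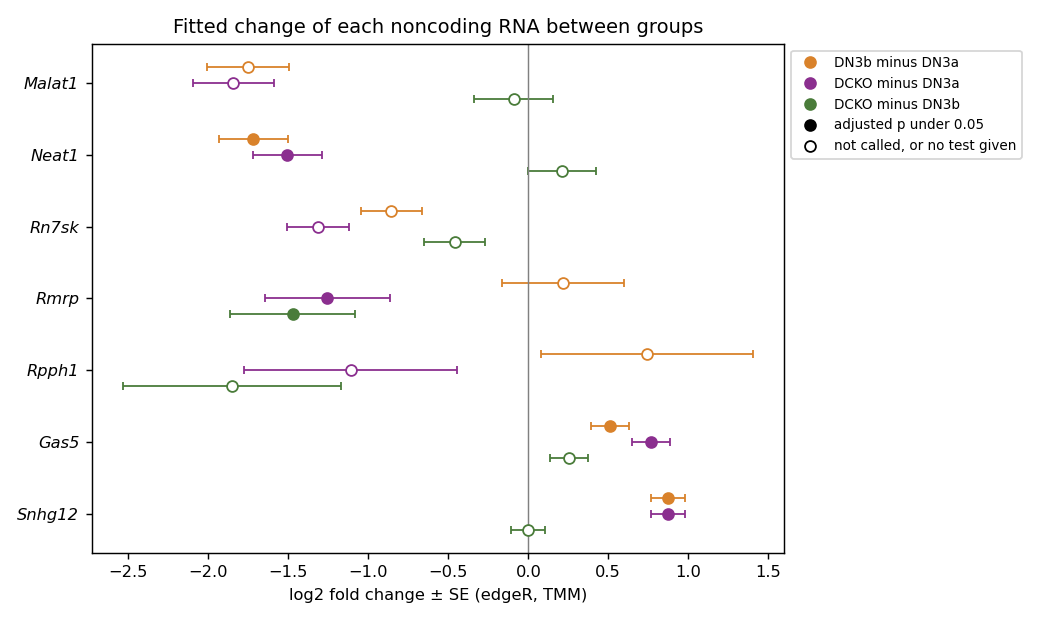
Fitted log2 fold change ± SE (horizontal axis, edgeR with TMM, 4 libraries a group) of each noncoding RNA in the 3 comparisons; filled points had an adjusted p under 0.05, open points did not or carry no test. Neat1 lies at -1.72 and -1.51 against DN3a and near 0 between DCKO and DN3b, while Snhg12 lies at 0.87 in both comparisons with DN3a.

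Malat1, the speckle RNA, stood higher in DN3a than in both other groups. Malat1 (ENSMUSG00000092341, chr19:5795690-5802672, minus strand, 1 exon) measured 6316, 7212, 5621 and 5398 CPM in DN3a libraries 1 to 4. It stood at 2395, 2320, 1526 and 1043 CPM in DN3b and at 1209, 1650, 2211 and 1769 CPM in DCKO. Every DN3a library lay above all 8 others, while the DN3b and DCKO libraries overlapped. The fitted log2 fold change was -1.75 ± 0.25 (SE) from DN3a to DN3b, a 3.37-fold lower level, and -1.84 ± 0.25 from DN3a to DCKO, 3.59-fold lower; this difference chose the gene and carries no test. In bulk RNA, fewer cells that hold a transcript and less of it per cell cannot be told apart. DCKO against DN3b was not called by edgeR's quasi-likelihood test (log2 fold change -0.09 ± 0.25, Benjamini-Hochberg adjusted p = 0.832), and the sign turned with single libraries left out.

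Neat1 (ENSMUSG00000092274, chr19:5824708-5845478, minus strand), the paraspeckle RNA, lies upstream of Malat1 on the same strand. Its fall was not named in the choice, but the set was chosen with earlier results of these data known. Over the 12 libraries its level followed that of Malat1 (Pearson r = 0.98), so its tests do not stand apart from the choice. Neat1 measured 87.3, 93.3, 85.4 and 93.0 CPM in DN3a, 33.4, 33.5, 26.7 and 15.3 in DN3b, and 23.2, 31.4, 39.2 and 32.4 in DCKO. Within DN3a the 4 libraries kept to a coefficient of variation of 4.47%, and no library of either other group came near them. Neat1 fell 3.29-fold from DN3a to DN3b (log2 fold change -1.72 ± 0.22, edgeR adjusted p = 7.1e-05) and 2.84-fold from DN3a to DCKO (-1.51 ± 0.22, adjusted p = 7.83e-05). DCKO against DN3b gave 0.21 ± 0.21 (adjusted p = 0.515). The counts cover the gene as a whole, so its short and long isoforms cannot be told apart.

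The groups were checked on their labels and on other cell types. In DCKO the targeted Zfp36l1 was at 2.33 ± 1.01 CPM (SD, n = 4) against 33.9 ± 7.15 in DN3a and 14.3 ± 6.13 in DN3b, and Zfp36l2 at 63.9 ± 20.1 against 541 ± 145 and 364 ± 79.4. DN3 thymocyte markers were present (summed CPM 5306 to 13210, none at 0), and 8 of 11 fell and 1 rose from DN3a to DN3b, among the 8 that fell Il2ra, the receptor chain that marks DN3 cells, by 2.20 on the log2 scale (edgeR adjusted p = 0.00013). From DN3a to DCKO 2 of the 11 rose and 2 fell. From DN3b to DCKO 4 rose (Cd3g, Cd3d, Rag1 and Bcl11b; 2 of the 11 with the replicate number as a block and 7 with the GC content index of the library as a covariate), and their summed CPM was 8519 to 13210 in DCKO, above the 5306 to 7416 of DN3b. The summed markers of some other cells were also higher in DN3a, as Malat1, Neat1 and Rn7sk were. In DN3a the summed CPM of 9 thymic stroma genes was 195 to 270.1, against 83.0 to 165 in DN3b and 90.5 to 154 for DCKO. That of 8 B cell genes was 46.4 to 61.3, against 10.6 to 34.2 and 20.6 to 26.4, and that of 10 myeloid genes 23.6 to 33.7, against 5.24 to 13.5 and 11.3 to 25.8, where DCKO reached into the DN3a range. In DN3a, 3 of the stroma genes (Krt5, Foxn1 and Pdgfra) and 2 of the myeloid genes (Mpo and Elane) had 0 counts in all 4 libraries. In DN3b, Pdgfra, the B cell gene Pax5 and the myeloid genes S100a9 and Elane did, and in DCKO Pdgfra did. Of the sums in DN3a, most came from Pecam1 and Epcam, from Cd79b and from Lyz2. Gene by gene, 2 of the 5 stroma genes tested fell from DN3a to DN3b, as did 2 of the 3 B cell genes. Of the 4 myeloid genes tested 2 fell and 1 rose there. From DN3a to DCKO 2 stroma, 2 B cell and 1 myeloid gene fell, and none was called higher. In each comparison 1 stroma gene was higher at an unadjusted edgeR p under 0.05. The sum of 9 dendritic cell genes, most of it from Bst2, was 129 to 167 in DCKO, above the 74.5 to 116 of DN3a and overlapping the 73.7 to 140 of DN3b, with Siglech at 0 counts in all 4 DCKO libraries. Of the 7 tested, 5 rose and 0 fell from DN3a to DCKO (median log2 fold change 0.73), and 1 rose on library sizes without a composition factor, on upper quartile scaling or without DCKO libraries 1 and 2. Sums for dendritic cells, erythroid cells and platelets (3.06 to 28.95) and gamma-delta or cytotoxic cells (417 to 758) overlapped between DN3a and DN3b, and the last 2 also between DCKO and each control stage. Their part in the levels of the noncoding RNAs was not tested.

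The ratio of Malat1 to Neat1 counts overlapped between both control stages and lay lower in DCKO. It ran from 52.1 to 56.3 in DCKO (median 53.55), against 58.0 to 77.3 in DN3a (median 69.1) and 57.2 to 71.7 in DN3b (median 68.7). The 4 DCKO libraries lay below all 8 control libraries. This ratio was looked at after the values were known and was not tested.

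The genes called around this pair of loci moved in both directions. Of 18 other protein-coding genes within 150 kb of Malat1 or Neat1, 14 were tested. Of all genes tested, 27.4% rose and 25.2% fell from DN3a to DN3b, and 30.7% and 29.5% did from DN3a to DCKO. From DN3a to DN3b 3 rose and 1 fell (median log2 fold change 0.11, against -0.02 over all genes), and with the replicate number as a block 5 rose and 3 fell. Pola2, a subunit of the DNA polymerase alpha complex, rose by 1.34 ± 0.15 (edgeR adjusted p = 4.15e-05) and Slc25a45, a mitochondrial carrier, fell by 0.77 on the log2 scale (adjusted p = 0.00394). From DN3a to DCKO 2 rose and 5 fell (median -0.46), 3 fell without DCKO libraries 1 and 2, and 1 rose and 9 fell on library sizes without a composition factor. Capn1, a calcium-dependent protease, fell by 0.56 there (adjusted p = 0.00154) and by 0.66 from DN3b to DCKO (adjusted p = 0.00266), as 1 of 2 neighbours that fell in that comparison (7 did on library sizes without a composition factor).

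Messenger RNAs for proteins of the bodies that Neat1 and Malat1 belong to moved in both directions. Of 15 paraspeckle proteins, 6 rose and 1 fell from DN3a to DN3b (median 0.25; 3 fell with the replicate number as a block), and 9 rose and 0 fell from DN3a to DCKO (median 0.50). Nono, a core paraspeckle protein, rose by 0.50 ± 0.09 (edgeR adjusted p = 0.000485) and by 0.74 ± 0.09 (adjusted p = 2.18e-05); its partner Sfpq gave 0.25 ± 0.13 (adjusted p = 0.119) and rose by 0.41 ± 0.13 in DCKO (adjusted p = 0.0144). Rbm14, needed to build paraspeckles, rose by 0.99 ± 0.13 and 0.75 ± 0.13, and Dazap1 by 1.44 ± 0.13 and 1.37 ± 0.13. On library sizes without a composition factor, 4 of the 15 rose and 3 fell from DN3a to DCKO.

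Among 19 nuclear speckle proteins 7 rose and 6 fell from DN3a to DN3b, and 8 rose and 5 fell from DN3a to DCKO; none of the 19 was called between DCKO and DN3b by edgeR or DESeq2, and 1 was higher at an unadjusted p under 0.05. On library sizes without a composition factor, 5 rose and 9 fell from DN3a to DCKO. The splicing factor Srsf2 rose by 0.93 and 1.21 on the log2 scale (edgeR adjusted p = 9.56e-05 and 9.24e-06). Clk1 and Clk4, kinases of splicing factors, fell from DN3a to DN3b by 1.10 and 0.78, and Pnisr fell by 1.08. From DN3a to DCKO the same 3 genes fell by 1.19, 0.73 and 1.34.

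The 7SK RNA stood highest in DN3a and lowest in DCKO. Rn7sk (ENSMUSG00000065037, chr9:78175303-78175633, minus strand, 331 bases) measured 6545, 5593, 8474 and 6044 CPM in DN3a, 4262, 4129, 3739 and 2580 in DN3b, and 2811, 2051, 2640 and 3198 in DCKO. All DN3a libraries lay above all others, and DN3b and DCKO overlapped only through DN3b library 4. The log2 fold change was -0.86 ± 0.19 from DN3a to DN3b (1.81-fold lower) and -1.32 ± 0.19 from DN3a to DCKO (2.49-fold lower), with no test for the same reason as for Malat1. From DN3b to DCKO it was -0.46 ± 0.19 (edgeR adjusted p = 0.109); without DN3b replicate 4 it fell by 0.61 on the log2 scale (adjusted p = 0.0292), and without DCKO libraries 1 and 2 it was -0.33 (adjusted p = 0.447). The genome holds many near copies of 7SK, and how reads matching several of them were counted is not given in the sources used here.

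Messenger RNAs for the proteins of the 7SK particle and of P-TEFb moved in both directions. Of 7 genes for the particle and for P-TEFb, 3 rose and 1 fell from DN3a to DN3b, and 3 rose and 0 fell from DN3a to DCKO (3 fell there on library sizes without a composition factor). Hexim1, the P-TEFb inhibitor, rose by 0.73 ± 0.12 (edgeR adjusted p = 0.000385) and by 0.71 ± 0.12 (adjusted p = 0.000301). Larp7, which binds the 3′ end of 7SK, rose by 0.71 ± 0.12 and 0.74 ± 0.12. Mepce, which caps its 5′ end, rose by 0.33 ± 0.13 in DN3b (adjusted p = 0.0428) and gave 0.08 ± 0.13 in DCKO (adjusted p = 0.614). The kinase Cdk9 itself was called in no comparison (0.17 ± 0.13, -0.11 ± 0.13 and -0.28 ± 0.13, adjusted p from 0.144 to 0.463). The cyclin Ccnt2 was the 1 gene that fell from DN3a to DN3b, by 0.39 on the log2 scale (adjusted p = 0.00261). Ccnt1, another cyclin of P-TEFb, was the 1 gene of the 7 called between DCKO and DN3b, with a rise of 0.36 ± 0.11 (adjusted p = 0.0369), a call lost without DCKO libraries 1 and 2.

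The RNA of RNase MRP was lower in DCKO than in both control stages. Rmrp (ENSMUSG00000088088) measured 105.9, 51.4, 140.6 and 172 CPM in DN3a, 161, 101.6, 158 and 125.5 in DN3b, and 39.9, 23.0, 45.8 and 88.0 in DCKO. Every DCKO library lay below every DN3b library, as 20.9% of all genes tested did in one direction or the other, while DN3a library 2 reached into the DCKO range. Rmrp fell 2.78-fold from DN3b to DCKO (log2 fold change -1.47 ± 0.39, edgeR adjusted p = 0.0203) and 2.39-fold from DN3a to DCKO (-1.26 ± 0.39, adjusted p = 0.0136). DN3b against DN3a gave 0.22 ± 0.38 (adjusted p = 0.653).

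The fall of Rmrp from DN3b to DCKO kept its direction and lost its call with any of 4 single libraries left out. The adjusted p became 0.0532 without DN3b replicate 3, 0.0653 without DCKO replicate 1, 0.0511 without DCKO replicate 2 and 0.0554 without DCKO replicate 3. Without DCKO libraries 1 and 2 together, the log2 fold changes were -1.03 against DN3b (adjusted p = 0.186) and -0.83 against DN3a (adjusted p = 0.125). DCKO library 1 had 9.02% of its counts on a feature with no symbol in the annotation, ENSMUSG00000045999, and DCKO library 2 had 1.14% on Gm42418 and 0.569% on Lars2.

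The RNA of RNase P varied widely between replicates. Rpph1 (ENSMUSG00000092837) measured 864, 122, 493 and 324 CPM in DN3a, 1678, 418, 607 and 313 in DN3b, and 165.5, 87.7, 114 and 468 in DCKO. The coefficient of variation was 69.8%, 83.25% and 84.1% in the 3 groups, against 10.7%, 12.3% and 10.7% for Gas5, and the groups overlapped in all 3 comparisons. None of the 3 differences was called by edgeR: the log2 fold change was 0.74 ± 0.66 from DN3a to DN3b (adjusted p = 0.36), -1.11 ± 0.67 from DN3a to DCKO (adjusted p = 0.165) and -1.85 ± 0.68 from DN3b to DCKO (adjusted p = 0.0739). With the replicate number as a block the first rose by 0.72 (adjusted p = 0.0403). Without DCKO replicate 4 the falls to DCKO were -1.87 (adjusted p = 0.0289) and -2.62 (adjusted p = 0.0185), and without DN3b replicate 4 the fall from DN3b was -2.12 (adjusted p = 0.0498). The differences shrank to -0.58 from DN3a without DN3a replicate 1 (adjusted p = 0.468) and to -1.10 from DN3b without DN3b replicate 1 (adjusted p = 0.25). Without DCKO libraries 1 and 2 they were -0.66 (adjusted p = 0.543) and -1.37 (adjusted p = 0.411).

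The level of Rpph1 moved with the GC content of the whole library. A GC index was taken for each library as the mean centred log2 CPM of the 1383 genes with the most GC-rich transcripts minus that of the 1383 with the least. It was 0.45, -0.59, -0.05 and -0.27 in DN3a libraries 1 to 4, 0.83, 0.09, 0.36 and 0.02 in DN3b, and -0.36, -0.45, -0.38 and 0.35 in DCKO. At each replicate number it was higher in DN3b than in DN3a. Ordered by Rpph1 and ordered by the index, the 4 libraries came in the same order within each of the 3 groups. Rmrp did not follow that order in any group. Rn7sk followed it in DCKO alone, and Malat1, Neat1, Gas5 and Snhg12 in none. Over the 12 libraries, which fall into 3 groups and share their scaling, Pearson r with the index was 0.94 for Rpph1 and 0.66 for Rmrp.

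With the GC index as a covariate, an alternative added after the data had been seen, the standard errors of Rpph1 shrank and its changes altered. DN3b against DN3a turned to -0.46 ± 0.19 (edgeR adjusted p = 0.0563), and DCKO against DN3a became a called fall of -0.85 (adjusted p = 0.000928). DCKO against DN3b shrank to -0.39 (adjusted p = 0.229). Rmrp in the same fit gave -0.24 from DN3a to DN3b, with its sign turned, -1.26 from DN3a to DCKO, and -1.02 from DN3b to DCKO (adjusted p = 0.0878), a call lost. Rn7sk gave -1.05 from DN3a to DN3b and -1.28 from DN3a to DCKO, and its difference between DCKO and DN3b shrank to -0.24 (adjusted p = 0.452). Malat1 and Neat1 hardly moved against DN3a (-1.85 and -1.80 in DN3b, -1.83 and -1.49 in DCKO). Whether the GC content of the fragments set the Rpph1 levels was not tested.

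**Figure D3:**
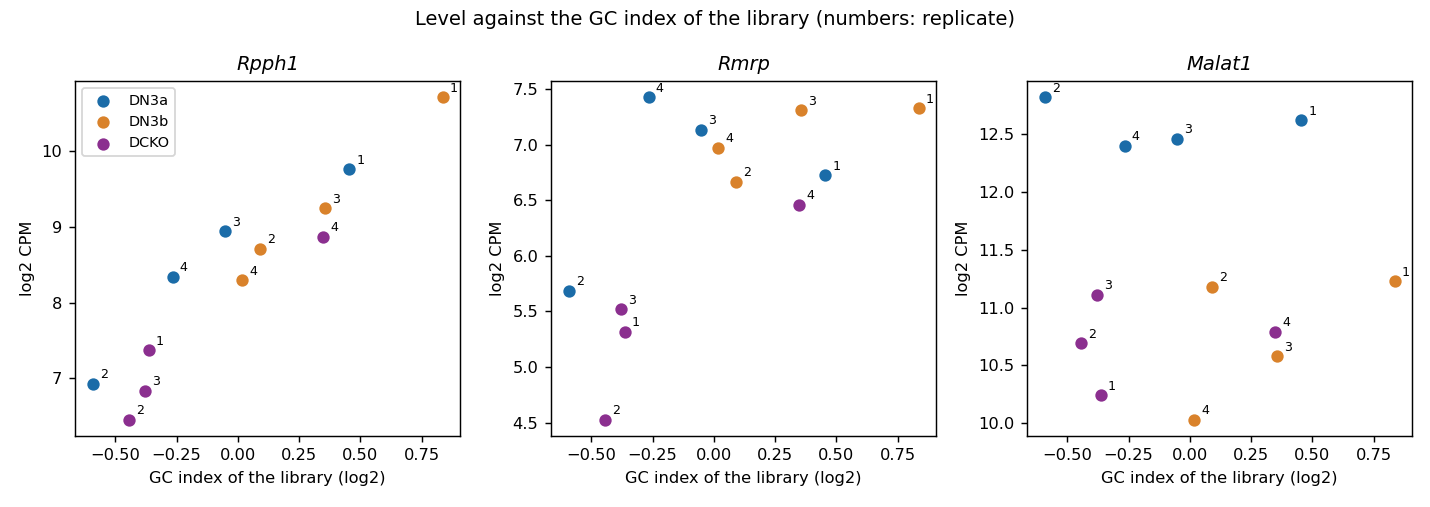
log2 CPM of Rpph1, Rmrp and Malat1 (vertical axes) against the GC index of the library (horizontal axis, log2 units); each point is 1 library, coloured by group and numbered by replicate. Rpph1 rises with the index in all 3 groups, whereas Malat1 separates DN3a from the other groups at low and high index alike.

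Rpph1 and Rmrp overlap other genes, and the strand setting of the counting is not given in the sources used here. Ccnb1ip1 covers 233 exonic bases of Rpph1 on the same strand, with 1231 counts over the 12 libraries against 212933 for Rpph1. Ccdc107 covers 124 exonic bases of Rmrp on the opposite strand, with 7189 counts against 44628. Over Malat1 the antisense Gm37376 had 543 counts against 1517929.

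Messenger RNAs for the proteins of both enzymes rose after DN3a. Of 11 protein subunits of RNase P and RNase MRP, most of them shared by both enzymes, 10 rose and 0 fell from DN3a to DN3b (median log2 fold change 0.84), and 8 rose and 0 fell from DN3a to DCKO (median 0.76). None of the 11 was called between DCKO and DN3b by edgeR or DESeq2 (median 0.03), and 1 was lower at an unadjusted p under 0.05. The scaffold subunit Pop1 rose by 1.21 ± 0.17 (edgeR adjusted p = 0.000136) and 1.30 ± 0.17 (adjusted p = 4.54e-05), Rpp30 by 1.17 ± 0.18 and 1.51 ± 0.19, and Pop7 by 1.19 ± 0.20 and 1.43 ± 0.20. The 10 and 8 became 8 and 6 on library sizes without a composition factor.

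The ratio of Rpph1 to Rmrp counts overlapped between the groups. Its mean on the log2 scale (± SD, n = 4) was 2.17 ± 0.87 in DN3b, 1.93 ± 0.45 in DCKO and 1.75 ± 0.93 in DN3a. The exact two-sided permutation p was 0.457 between DN3b and DN3a, 0.686 between DCKO and DN3a and 0.714 between DCKO and DN3b, with adjusted values over 6 ratio tests of 0.686, 0.714 and 0.714. Paired by replicate number, the ratio was higher in DN3b than in DN3a in 4 of 4 pairs (8.16 to 10.43, 2.37 to 4.12, 3.51 to 3.83 and 1.88 to 2.495), with an exact paired permutation p of 0.125, the smallest that 4 pairs allow (adjusted p = 0.188). The GC index was also higher in DN3b in each of these pairs, and its part in the ratio was not tested.

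Genes of RNA polymerase III, which makes Rn7sk, Rmrp and Rpph1, moved in both directions. Of 28 tested, 12 rose and 4 fell from DN3a to DN3b, and 15 rose and 5 fell from DN3a to DCKO; on library sizes without a composition factor these became 4 and 7, and 5 and 6. Polr3d, a subunit, rose by 0.48 and 1.04 on the log2 scale (edgeR adjusted p = 0.00309 and 1.17e-05). Polr3gl fell by 0.39 in DN3b (adjusted p = 0.0456) and by 1.09 in DCKO (adjusted p = 7.81e-05). Between DN3b and DCKO 3 rose and 2 fell, and none was called without DCKO libraries 1 and 2.

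Many other short structural RNAs fell after DN3a. Of 30 listed 20 passed the filter on low counts, which a gene can pass through DN3a alone: 11 fell and 0 rose from DN3a to DN3b (median -0.78), where 25.2% of all genes tested were called lower, and 16 fell and 0 rose from DN3a to DCKO (median -1.34), against 29.5%. The filter can favour genes high in DN3a, so nothing particular to the list is read from these counts. Scarna2 and Scarna13, which guide changes to spliceosomal RNAs in Cajal bodies, stood at 55.6 and 112.8 CPM in DCKO against 156 and 259 in DN3a and 98.4 and 173.5 in DN3b. Both fell in all 3 comparisons, from DN3b to DCKO by 0.82 (edgeR adjusted p = 0.0278) and 0.62 (adjusted p = 0.0383), calls that were lost without DCKO libraries 1 and 2. Rn7s1 and Rn7s2, the 7SL RNAs of the signal recognition particle, were called in no comparison, at means of 4.22 and 0.992 CPM in DN3a. With a minimum count of 50, 13 of the list were tested and the falls numbered 6 and 10. Near-identical copies of U2, U3 and other small RNAs in this list can share or lose reads, and libraries of this kind keep short RNAs poorly.

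The snoRNA hosts went the other way. Gas5 (ENSMUSG00000053332, chr1:161034422-161038539, plus strand) stood at 221, 280.2, 249 and 276 CPM in DN3a, 310.4, 379.5, 358 and 418 in DN3b, and 493, 455, 413 and 387 in DCKO. The DN3a libraries lay below all others, and DN3b and DCKO overlapped. Gas5 rose 1.43-fold from DN3a to DN3b (log2 fold change 0.51 ± 0.12, edgeR adjusted p = 0.00306) and 1.70-fold from DN3a to DCKO (0.77 ± 0.12, adjusted p = 0.000141). DCKO against DN3b gave 0.25 ± 0.12 (adjusted p = 0.15). On library sizes without a composition factor, Gas5 rose by 0.31 in DN3b and by 0.42 in DCKO on the log2 scale. Its level ran opposite to those of Malat1 and Rn7sk over the 12 libraries (Pearson r = -0.89 and -0.93). Its tests against DN3a thus do not stand apart from the choice of the set.

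On TMM-scaled library sizes, Snhg12 (ENSMUSG00000086290, chr4:132308623-132311024, plus strand) rose by the same factor in DN3b and DCKO. It measured 20.5, 23.0, 23.2 and 25.2 CPM in DN3a, 37.0, 41.8, 43.5 and 46.0 in DN3b, and 47.5, 41.9, 38.9 and 39.9 in DCKO. DN3a stood apart again, and the other groups covered nearly the same range. The rise was 1.83-fold in both comparisons with DN3a (0.87 ± 0.11, edgeR adjusted p = 5.81e-05 for DN3b and 2.53e-05 for DCKO), and the log2 difference between DCKO and DN3b was -0.0008 ± 0.11 (adjusted p = 0.996). On library sizes without a composition factor, Snhg12 rose by 0.67 in DN3b and by 0.53 in DCKO on the log2 scale. Its level, too, ran opposite to that of Malat1 over the 12 libraries (Pearson r = -0.97). The tests of Snhg12 against DN3a thus do not stand apart from the choice either.

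Between the hosts, differences in the balance did not pass correction. The ratio of Snhg12 to Gas5 counts ran from 0.110 to 0.122 in DN3b, against 0.0822 to 0.0931 in DN3a and 0.0921 to 0.103 for DCKO. DN3b lay above both other groups in all 4 libraries. The log2 ratio differed by 0.36 from DN3a to DN3b and by -0.26 from DN3b to DCKO (exact two-sided permutation p = 0.0286 each, the smallest that 4 against 4 libraries allow, adjusted p = 0.0857 each over 6 tests). From DN3a to DCKO it differed by 0.10 (exact permutation p = 0.0857, adjusted p = 0.171). Paired by replicate number, the difference from DN3a to DN3b had an exact paired permutation p of 0.125 (adjusted p = 0.1875).

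**Figure D4:**
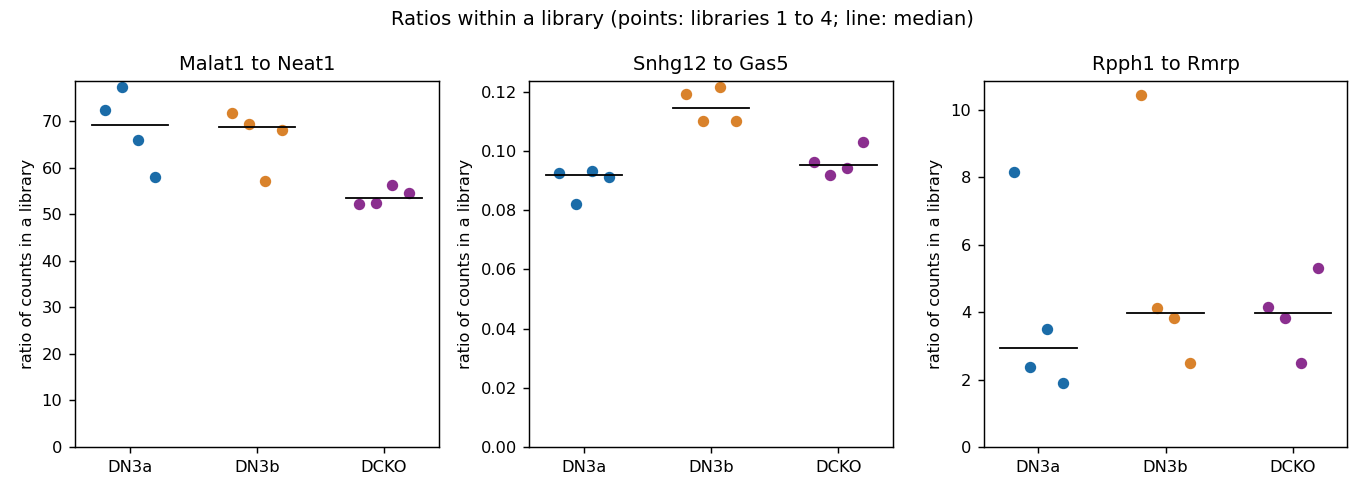
Ratios of counts within a library for Malat1 to Neat1, Snhg12 to Gas5 and Rpph1 to Rmrp (vertical axes, linear from 0); points are libraries 1 to 4 from left to right and lines are medians. The 4 DCKO libraries sit lowest for Malat1 to Neat1 (52.1 to 56.3), and the 4 DN3b libraries highest for Snhg12 to Gas5 (0.110 to 0.122).

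The small RNAs inside these hosts could hardly be measured. Every snoRNA row lying in Gas5 or Snhg12 held 0 counts in all 12 libraries except Snora16a in Snhg12, with 1475 counts. Zbtb37, which starts head to head with Gas5 on the opposite strand, shares 0 exonic bases with it. In the annotation used here these snoRNAs lie within exonic bases of their hosts, such as 129 bases for Snora44 in Snhg12 and 80 for Gm26224 in Gas5. How reads shared by a snoRNA and its host were counted is not given in the sources used here. The 0 counts are therefore not read as absence of these snoRNAs. The values of Gas5 and Snhg12 are those of the host gene rows.

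Other noncoding hosts moved mostly upward. Of 18 listed, 10 were tested: 6 rose and 0 fell from DN3a to DN3b (median 0.38), and 5 rose and 2 fell from DN3a to DCKO (median 0.35; 1 fell without DCKO libraries 1 and 2). Snhg3 rose by 1.38 ± 0.24 (edgeR adjusted p = 0.000442) and 2.01 ± 0.24 (adjusted p = 2.18e-05), Snhg5 by 0.77 ± 0.12 and 0.93 ± 0.12, Snhg15 by 0.74 ± 0.12 and 0.76 ± 0.12, and Zfas1 by 0.52 ± 0.12 and 0.79 ± 0.12. Snhg6 rose by 0.49 ± 0.13 and 1.22 ± 0.13, and was higher in DCKO than in DN3b by 0.73 ± 0.13 (adjusted p = 0.0026; not called without DCKO libraries 1 and 2). Snhg17, singled out after its values were seen, fell from DN3b to DCKO (-0.54 ± 0.10, edgeR adjusted p = 0.00244).

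Messenger RNAs for the proteins that snoRNAs join rose after DN3a. All 16 snoRNP proteins tested rose in both comparisons with DN3a (medians 0.996 and 1.14). Nop56, of the box C/D core, rose by 0.85 ± 0.10 and 1.15 ± 0.10, and Nhp2, of the box H/ACA core, by 1.62 ± 0.16 and 1.67 ± 0.16. Between DN3b and DCKO 3 of the 16 rose (Nop56, Snu13 and Znhit3, by 0.30 to 0.44), and none did without DCKO libraries 1 and 2 or on library sizes without a composition factor. Of 18 other messenger RNAs of the terminal oligopyrimidine class that encode no ribosomal protein, 16 rose and 0 fell in DN3b (median 0.61), and 14 rose and 0 fell in DCKO (median 0.67; 9 rose and 1 fell on library sizes without a composition factor). Npm1, a nucleolar chaperone, rose by 1.33 ± 0.20 and 1.64 ± 0.20, and Eef1g, a subunit of a translation elongation factor, by 0.90 ± 0.12 and 0.85 ± 0.12.

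Factors of nonsense-mediated decay, which clears spliced Gas5, moved in both directions. Of 15, 6 rose and 4 fell in DN3b and 5 rose and 4 fell in DCKO. Upf1, the central helicase, rose by 0.44 (edgeR adjusted p = 0.0418) in DN3b and gave 0.20 in DCKO (adjusted p = 0.313). The exon junction genes Eif4a3 and Magohb rose by 1.22 and 1.31 in DN3b and by 1.30 and 2.28 in DCKO.

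**Figure D5:**
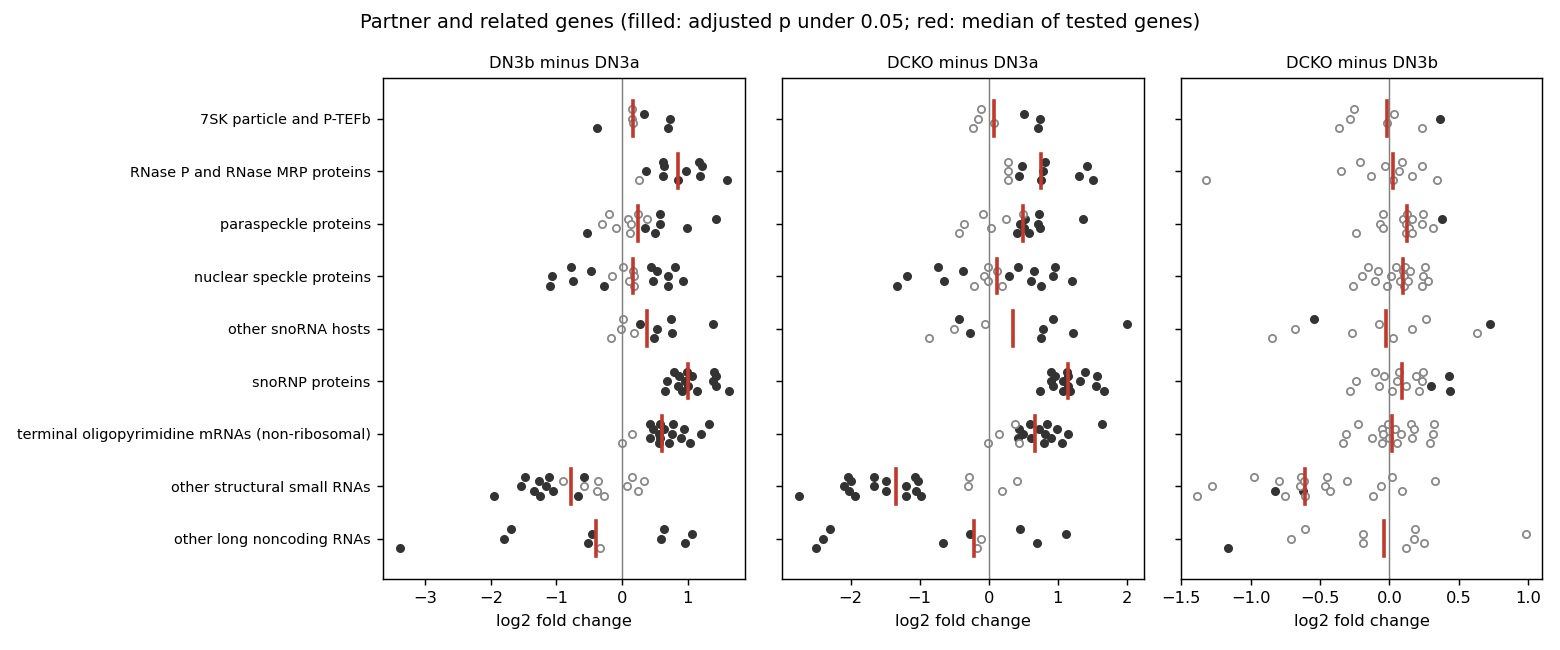
log2 fold change of each tested gene (points, horizontal axis) in 9 lists of partner and related genes for the 3 comparisons; filled points had an adjusted p under 0.05 and red bars are medians of the tested genes. All 16 snoRNP proteins lie right of 0 in both comparisons with DN3a, and the median of the 20 structural small RNAs lies at -0.78 and -1.34.

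Other long noncoding RNAs did not share one direction. Of 10 tested, 4 rose and 5 fell from DN3a to DN3b, and 3 rose and 5 fell from DN3a to DCKO. Firre, a nuclear RNA that organises chromatin, fell by 1.69 (edgeR adjusted p = 0.000149) and 2.30 on the log2 scale (adjusted p = 1.19e-05), and Tug1 by 0.52 (adjusted p = 0.000971) and 0.27 (adjusted p = 0.0326). Mir17hg, the host of a microRNA cluster, rose by 0.95 (adjusted p = 0.00153) and 1.13 (adjusted p = 0.000347).

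The genes whose log2 CPM followed each member most closely over the 12 libraries, among 7343 genes of at least 4 mean log2 CPM, were taken as a description, since the libraries form 3 groups and share their depth and scaling. For Malat1 they were Gria3 (Pearson r = 0.993), Trim12a (0.991) and Baz2b (0.989). For Neat1 they were Baz2b (0.986), Abhd2 (0.982) and Malat1 itself (0.982). For Rn7sk they were Dcaf11 (0.975), Inpp5e (0.968) and Ensa (0.967). For Gas5 they were Psma4 (0.996), Psmc6 (0.996) and Smarca5 (0.996), and for Snhg12 Polh (0.995), Blvra (0.995) and Eif1ad (0.993). For Rmrp they were Nucb1 (0.956), Akna (0.939) and Inpp5d (0.919). The genes nearest to Rpph1, Unc45a (0.973), E4f1 (0.973) and Trappc9 (0.970), have transcripts of 58.5%, 58.2% and 55.0% GC. Those nearest to Rmrp have 52.7%, 57.7% and 53.55%, and those nearest to Rn7sk 50.7%, 53.9% and 47.3%.

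The proteins lost in DCKO bind AU-rich sites, for which TATTTAT serves as a core. On the strand of the transcript, the longest transcript of Malat1 held it 1 time, and 59.6% of 1032 tested genes with transcripts of 6000 to 8000 bases held it at least 1 time. The longest transcripts of Neat1, Rn7sk, Rmrp, Rpph1, Gas5 and Snhg12 held it 0 times. Among tested genes it was found in 64.4% of transcripts of 15000 to 25000 bases, 22.4% of those of 1400 to 2800 and 1.71% of those of 200 to 400.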

How the data were processed

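Total RNA of 12 libraries (4 control DN3a, 4 control DN3b, 4 DCKO) was prepared with the TruSeq Stranded Total RNA kit, per the labels' protocols. Per the submitters' processing notes, the build was GRCm38, and the tools named there are HTSeq, TopHat2 2.0.12, DESeq2 1.6.3 and Trim Galore. Which annotation release was counted, and on which strand, is not given in the sources used here. The authors deposited raw read counts per gene. Of 43629 Ensembl gene IDs, 42462 took a symbol from GENCODE M21 and 1167 had none.

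Genes were filtered with edgeR's filterByExpr (minimum count 10), leaving 13944. Counts were scaled by TMM and fitted over all 12 libraries with edgeR 4.0.16 (R 4.3.3, quasi-likelihood, group as the only term, 9 residual degrees of freedom). P-values are two-sided, adjusted by Benjamini-Hochberg over all genes tested, and called under 0.05; SE is the log2 fold change over the root of F. The script was tested on simulated data. Totals of 28479157 to 45975678 counts set the depth. CPM in the text is on TMM-scaled library sizes.

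The genes and lists were chosen with earlier results of these data known. The genes named were the noncoding RNAs, up to 4 genes of each list with the smallest p over the 3 comparisons, core partners written down with the lists, the 3 genes nearest in pattern to each RNA, and overlapping genes; Snhg17 and the markers at 0 were added after their values were seen. A gene that this rule names is not reported here. The exact permutation test was used for ratios of counts (offset 0.5). Replicate numbers are shared by the groups. Same-numbered DN3a and DN3b libraries deviated together from their group means, with correlations of 0.44, 0.56, 0.35 and 0.52. A pairing of those 8 libraries by number was thus read from the data. The main fit did not use it, so its SE and p for DN3b against DN3a are unpaired, and the replicate block is the paired alternative. The alternatives were upper quartile, relative log and library-size scaling, a minimum count of 50, DESeq2 1.42.0, a replicate block, leaving out each library or DCKO libraries 1 and 2, and, chosen after seeing the data, the GC index as a covariate. The level of Snhg1 was not analysed here.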

Additional observations from a re-analysis of the deposited data

How the results depend on the processing

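The calls of Neat1, Gas5 and Snhg12 against DN3a held in every alternative run except the replicate block with the GC index, in which 0 of 13944 genes were called between DN3b and DN3a; their log2 fold changes were -2.62, 0.68 and 0.91 and their adjusted p 0.068, 0.09 and 0.0751. In the same fit Malat1 was -2.35 and Rn7sk -1.63. That fit has few residual degrees of freedom. At every replicate number the GC index was higher in DN3b than in DN3a. It stood at 0.83 against 0.45, 0.09 against -0.59, 0.36 against -0.05 and 0.02 against -0.27. Stage and index can hardly be told apart in that fit, so its lost calls are not read as an absent difference. With the replicate block the calls in that comparison numbered 9233 against 7334, and apart from Rpph1 the block changed no other call of the noncoding RNAs. DCKO libraries are not paired with either control group by number (correlations of -0.26 to 0.12), and the block gave 1062 calls between DCKO and DN3b, against 2635. Without DCKO libraries 1 and 2 they numbered 950, and with single libraries left out 1601 to 3249. On library sizes without a composition factor the median log2 fold change of all genes moved from -0.02, -0.04 and -0.02 to -0.22, -0.38 and -0.16, and calls higher and lower from 3815 and 3519 to 2740 and 4904 (DN3b against DN3a), from 4275 and 4116 to 2577 and 6239 (DCKO against DN3a) and from 1438 and 1197 to 844 and 1918 (DCKO against DN3b). Upper quartile scaling gave 3021 and 4536, 3119 and 5528, and 1051 and 1644.

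Differences that were not called changed sign under some alternatives, and the cause was not tested. Malat1 between DCKO and DN3b turned positive without DN3b replicates 1 or 2 or DCKO replicate 1, ranging from -0.3004 to 0.0695 with single libraries left out, and became 0.13 without DCKO libraries 1 and 2 and 0.0176 with the GC index. Rmrp between DN3b and DN3a became -0.0315 without DN3a replicate 2 (0.4635 at the highest, without DN3a replicate 4), -0.24 with the GC index and -1.01 with the index and block. Rpph1 there became -0.0094 without DN3b replicate 1 (1.26 at the highest, without DN3a replicate 1), -0.46 with the index and -1.13 with the index and block. Snhg12 between DCKO and DN3b became 0.0103 with relative log scaling and 0.0101 with DESeq2, 0.02 without DCKO replicates 3 or 4, and ranged from -0.0835 to 0.027 with single libraries left out. The log2 ratio of Rpph1 to Rmrp ranged from -0.10 to 0.61 (DCKO minus DN3a) and from -0.53 to 0.16 (DCKO minus DN3b) with single libraries left out. As shares of counts without mitochondrial genes, Gm26917, Gm42418, Lars2 and ENSMUSG00000045999, Neat1 moved from 0.0102% to 0.0107% in DN3a, and in DCKO Gas5 moved from 0.0390% to 0.0413% and Snhg12 from 0.00375% to 0.00397%. The planned ratio to the summed counts of 3 host genes was not run, since Snhg1 was not analysed here. Depth limits no member: each had at least 470 counts in every library.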
